A study of Mus musculus with 3 samples.

Results

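The collagen gene family was followed across the cell types of 2 mouse tissues, skin and sympathetic ganglia. Members were all gene symbols made of Col, a number, the letter a and a number, and 44 of them were listed among the 31253 genes of the skin libraries and the 32285 genes of the ganglia library (32539 genes in all). The members were thus chosen by name and not by any measured value. All 44 had at least 1 UMI (unique molecular identifier, 1 counted RNA molecule) in each tissue, and 31 in skin and 30 in the ganglia had at least 20 UMIs in some cell class.

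Collagens are secreted or membrane-bound proteins in which 3 chains wind into a triple helix, and each gene encodes 1 chain. Fibrillar collagens form the tension-bearing fibrils of dermis, tendon and nerve sheath. Network collagens, chiefly type IV, are the scaffold of the basement membranes under epithelium and around vessels, muscle, fat and glial cells. Other members decorate fibrils, link fibrils to basement membranes, or span the cell membrane, as type XVII collagen does where basal keratinocytes are anchored. Fibroblasts are the main makers of fibrillar collagen in skin.

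The series held 3 single-cell libraries, each the only library of its group. The skin RHS library came from mice given RHS together with MC903, and the skin control library from mice given MC903 without RHS. MC903 is calcipotriol, a vitamin D analogue that gives an atopic dermatitis-like inflammation, so both skin libraries are of inflamed skin; the labels do not expand RHS. The sources used here do not state the strain or age of the mice, or how many gave each skin library. Skin cells were selected with CD45 beads, which hold leukocytes, and the labels call them immune cells. The stromal, vascular, epithelial and pigment cells described here are therefore those that came through a selection for other cells, and their number does not give their share in skin. The third library was made from ganglion nuclei (sites abbreviated SCG, STG, T2-T4 and CG) pooled from 30 mice given RHS and MC903 per its description, while the preparation text names only MC903. It had no partner library, and its sample title says skin where the tissue label says ganglia.

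The filters kept 12953 RHS skin cells, 12577 control skin cells and 4507 ganglia nuclei, with medians of 3101, 3233 and 1542 UMIs. The skin libraries shared 5 barcodes. Clusters were made without the collagen genes and named from marker lists that hold no collagen, so the values below did not choose the classes. Levels are in CPM, the usual scaling of a gene's UMIs by all UMIs of its class. Each UMI comes from the 3′ end of a molecule, so levels were not divided by gene length. Groups had 1 library each, so no replicate error and no test could be had: all intervals are exact 95% intervals that cover counting error only, and a difference between mice, captures or libraries cannot be told apart from one between treatments.

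In skin, collagen transcripts were concentrated in few classes. Fibroblast-like cells, where all 9 fibroblast markers were present, spent 6.84% of their UMIs on collagens in the RHS library (226 cells) and 9.52% in the control library (130 cells). Mural-like cells, the contractile cells around vessels, spent 1.00% and 1.13% (211 and 125 cells), and endothelial-like cells 0.266% and 0.312% (463 and 436 cells). A large cluster led by Igfbp3, Slc26a7 and Prlr passed the naming rule for no marker list and is unnamed; it spent 0.237% and 0.450% (1324 and 1881 cells). A smaller unnamed cluster led by Hhip and Sostdc1 spent 1.48% and 1.12% (18 and 62 cells). Schwann-like cells were at 0.511% and 0.405% (44 and 38 cells), adipocyte-like cells at 0.216% and 0.134% (16 and 51 cells), melanocyte-like cells at 0.103% and 0.0751% (55 and 163 cells) and keratinocyte-like cells at 0.0291% and 0.0570% (697 and 1407 cells).

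Leukocyte-like cells, which are not known as makers of fibrillar collagen, were taken as the background level. Free RNA was not measured. Collagens were 0.0110% of their UMIs in the RHS library (9899 cells) and 0.0104% in the control library (8284 cells). Col1a1, an α chain of type I collagen, had a UMI in 11.6% of RHS and 9.40% of control leukocyte-like cells, at 42.1 and 33.4 CPM. Its ratio to Col1a2 there was 2.26 (2.07 to 2.46) and 2.08 (1.88 to 2.29), against 1.80 (1.77 to 1.84) and 1.95 (1.91 to 1.99) in fibroblast-like cells. Thinned to 500 UMIs per cell, Col1a1 was seen in 1.86% of RHS and 1.497% of control leukocyte-like cells, against 76.5% and 90.8% of fibroblast-like cells. Such shares are read as background. Leukocyte-like cells, which were most of the skin cells, also held a large part of the skin UMIs of some members. For Col27a1 it was 322 of 473 in RHS and 347 of 857 in control, and for Col20a1 162 of 205 and 104 of 164. Whether these are background was not tested.

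**Figure D1:**
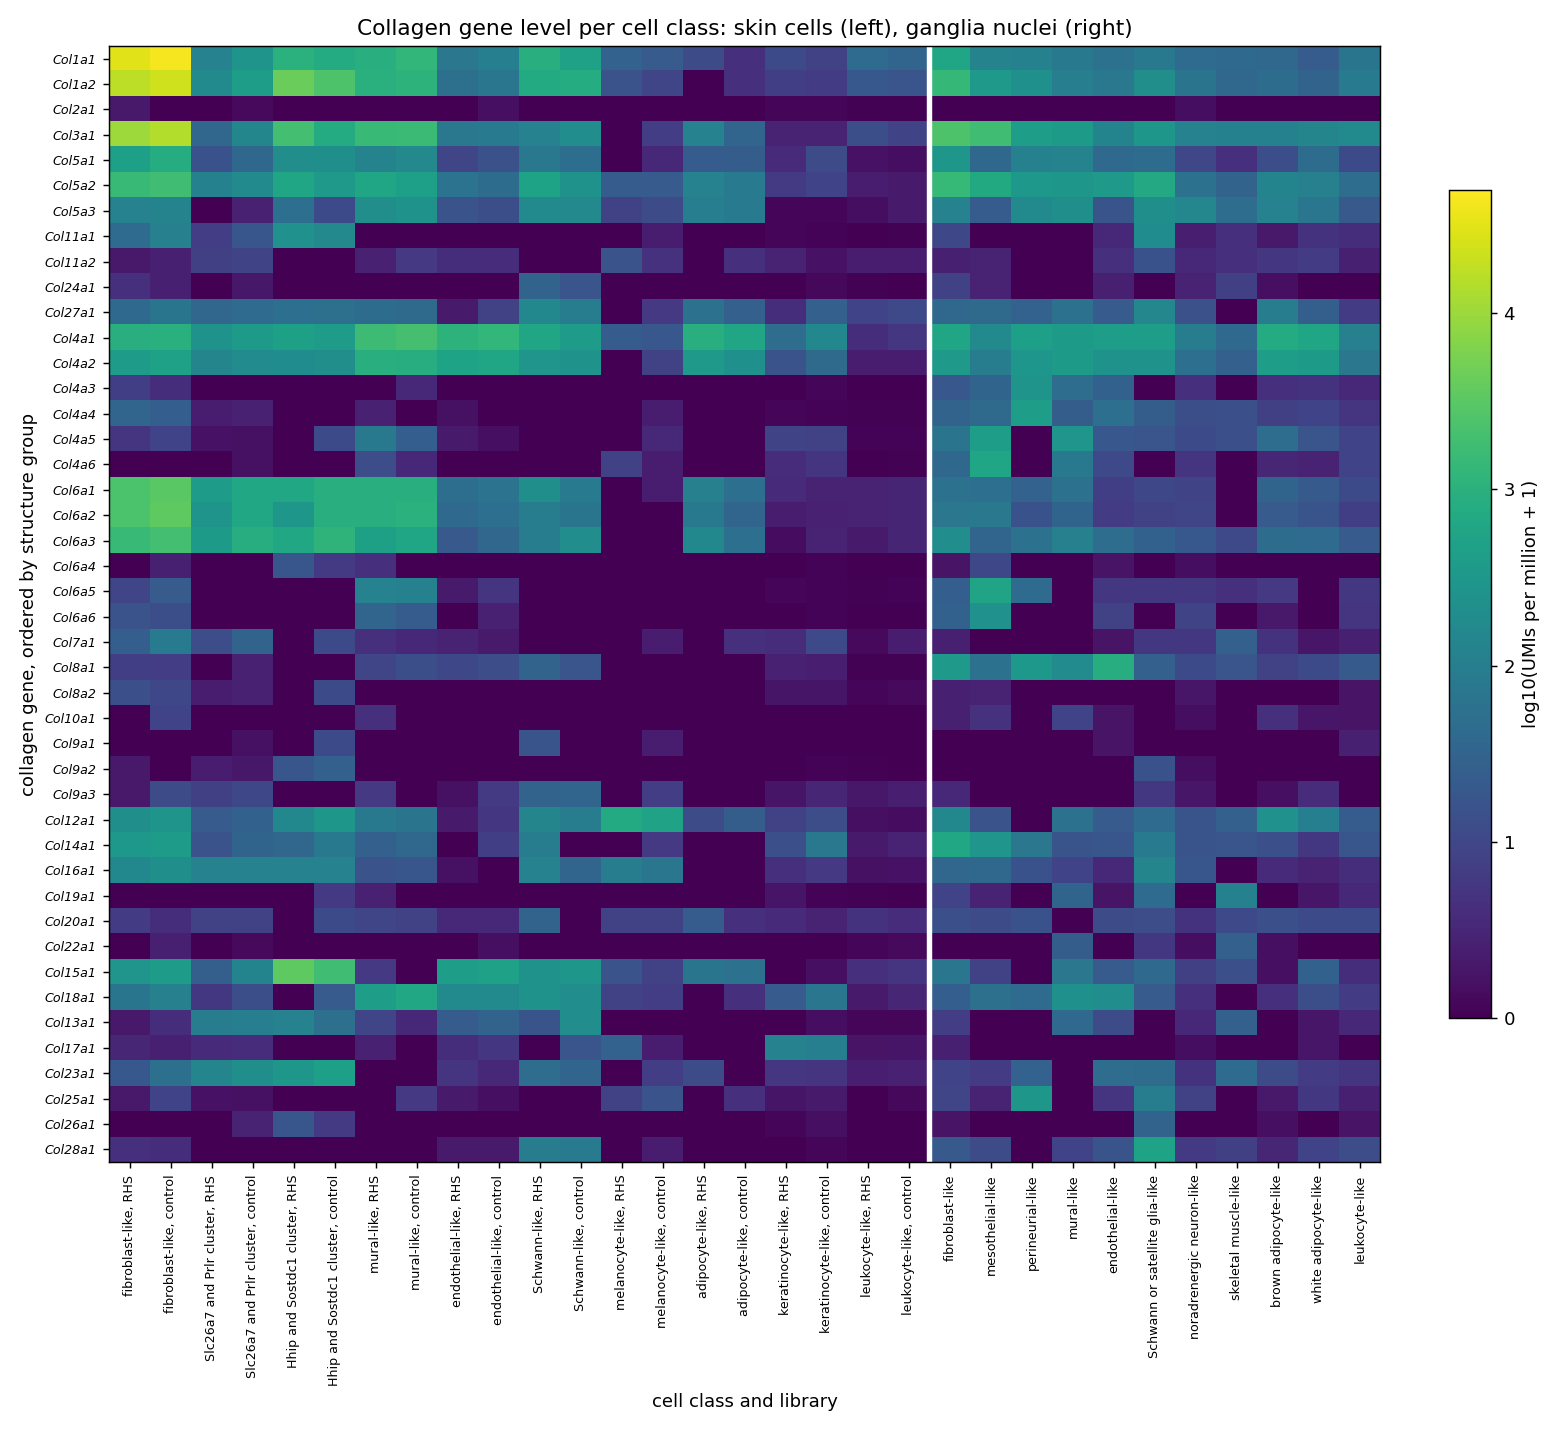
Level of each of the 44 collagen genes (rows, ordered by structure group) in every cell class (columns), as log10(CPM + 1). Skin classes are left of the white line, RHS before control, and ganglia classes are right of it; the fibroblast-like columns hold the brightest cells, with Col1a1 at 30611 CPM in RHS and 43789 CPM in control cells.

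The fibrillar genes led in skin fibroblast-like cells, where they were 87.5% of collagen UMIs in the RHS and 87.8% in the control library. Over both libraries, 90.7% of all skin UMIs of Col1a1, 85.7% of Col1a2 and 84.3% of Col3a1 lay in these cells. Col1a1 was at 30611 CPM in RHS and 43789 CPM in control cells, and Col1a2, the other chain of type I collagen, at 17001 and 22490 CPM. Col3a1, the chain of type III collagen of pliable tissues, was at 10098 and 14370 CPM. Col5a2, a chain of the type V collagen that seeds fibrils, was at 1455 and 1850 CPM. The genes of the 3 common chains of type VI collagen, the beaded filament around cells, came next: Col6a2 was at 2352 CPM in RHS and 3388 CPM in control cells, Col6a1 at 2300 and 3175 CPM, and Col6a3 at 1498 and 1964 CPM. Col4a1 of the basement membrane network was at 871 and 955 CPM.

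Col1a2 and Col3a1 were among the 3 highest collagens in fibroblast-like cells of both tissues, and the 250 bases before their transcription starts are shown for that reason. They come from RefSeq on build GRCm38.p6, both on the plus strand, Col1a2 at chr6:4505368-4505617 and Col3a1 at chr1:45311288-45311537. Capitals mark the motif CCAAT, which was searched on both strands (ATTGG on the other).
Col1a2: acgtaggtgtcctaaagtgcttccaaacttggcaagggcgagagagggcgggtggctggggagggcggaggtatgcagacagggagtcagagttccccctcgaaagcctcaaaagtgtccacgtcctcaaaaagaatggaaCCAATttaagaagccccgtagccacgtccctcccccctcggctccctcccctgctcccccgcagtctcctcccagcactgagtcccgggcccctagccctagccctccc
Col3a1: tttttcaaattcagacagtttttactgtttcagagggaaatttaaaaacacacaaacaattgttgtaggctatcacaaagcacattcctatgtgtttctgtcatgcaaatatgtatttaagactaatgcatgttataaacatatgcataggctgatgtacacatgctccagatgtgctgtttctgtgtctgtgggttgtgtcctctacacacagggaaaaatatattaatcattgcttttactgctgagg
Col1a2 held 1 such match, starting at -109 from the transcription start, and Col3a1 held 0. CCAAT was found in 34.5% of 27025 mouse promoters of this length and in 12 of the 35 collagen promoters matched by symbol (34.3%). TATAAA, searched likewise, was found in 12.97% of all promoters and in 5 of the 35.

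The comparison of RHS with control skin asked whether the collagen level within a class differed between the libraries. In fibroblast-like cells collagens together were lower in RHS, at a ratio of 0.719 (0.711 to 0.727), and the median cell spent 2.86% of its UMIs on them in RHS against 6.08% in control. Of 20 members with at least 50 UMIs over both libraries, 20 were lower in RHS, and 6 of them were at least 1.5-fold lower and 0 at least 1.5-fold higher. Over all 4180 genes measured in the class the same limits held 8.3% lower and 9.02% higher. The median log2 ratio was -0.49 over the 20 members and 0.01 over all measured genes. The lowest ratios were those of Col7a1 of the anchoring fibrils (22 UMIs in RHS and 53 in control, 0.290, 0.168 to 0.485), Col23a1, a transmembrane collagen (0.349), and the fibrillar genes Col11a1 (0.384) and Col5a1 (454 and 802 CPM, 0.566, 0.496 to 0.645). Col18a1 and Col27a1 followed at 0.600 and 0.616. The 10 highest cells held 90.9% of the Col7a1 UMIs in RHS and 73.6% in control, and 92.3% and 64.8% of those of Col11a1. Col5a3 (0.952, 0.707 to 1.29) and Col4a1 (0.913, 0.821 to 1.01) were nearest to equal, and Col12a1, Col14a1, Col4a2 and Col5a2 lay between 0.786 and 0.812. Col1a1, with 28181 and 28166 UMIs, was at 0.699 (0.688 to 0.711).

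This direction depended on how the class was drawn. At a finer clustering resolution the fibroblast-like cells divided into a part led by Dcn and Mgp and a part led by Coch and Fmod, which went opposite ways. In the Dcn and Mgp part collagens were 4.96% of UMIs in RHS (180 cells) and 8.15% in control (78 cells), a ratio of 0.608. In the Coch and Fmod part they were 11.2% in RHS (53 cells) and 9.39% in control (67 cells), a ratio of 1.19. Col1a1 was at 22237 and 39365 CPM in the first (0.565) and at 49752 and 41033 CPM in the second (1.21), and Col3a1 at 0.485 and 1.41. Most UMIs of Col7a1, Col23a1 and Col11a1, the members with the lowest class ratios, lay in the Coch and Fmod part. There Col7a1 had 22 in RHS and 53 in control (0.515), Col11a1 31 and 71 (0.541) and Col23a1 13 and 33 (0.488). In the Dcn and Mgp part they had 1 and 0, 8 and 0, and 4 and 3. Fibroblast-like cells were also pooled with the unnamed Slc26a7 and Prlr and Hhip and Sostdc1 clusters. In this pool collagens were higher in RHS, at 2.73% of UMIs against 1.99% in control (1.37, 1.36 to 1.39). Fibroblast-like cells were 14.4% of the pooled cells in RHS (12.7 to 16.2%) and 6.27% in control (5.27 to 7.40%). The ratio for the fibroblast-like class was also above 1 when the collagen genes were kept in the clustering (1.23, with 266 and 389 cells) and when doublets were kept (1.47, with 318 and 620 cells). The 10 cells highest in collagen held 28.7% of the class's collagen UMIs in RHS and 34.2% in control. The fibroblast markers, which include Dcn, summed to 13409 CPM in RHS and 12363 CPM in control, with 0 of 9 at 0. Their bearing on the collagen ratio was not tested. The 9 leukocyte markers summed to 983 CPM in RHS fibroblast-like cells and 112 CPM in control ones, against 9453 and 9860 CPM in leukocyte-like cells; their part in the result was not tested.

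**Figure D2:**
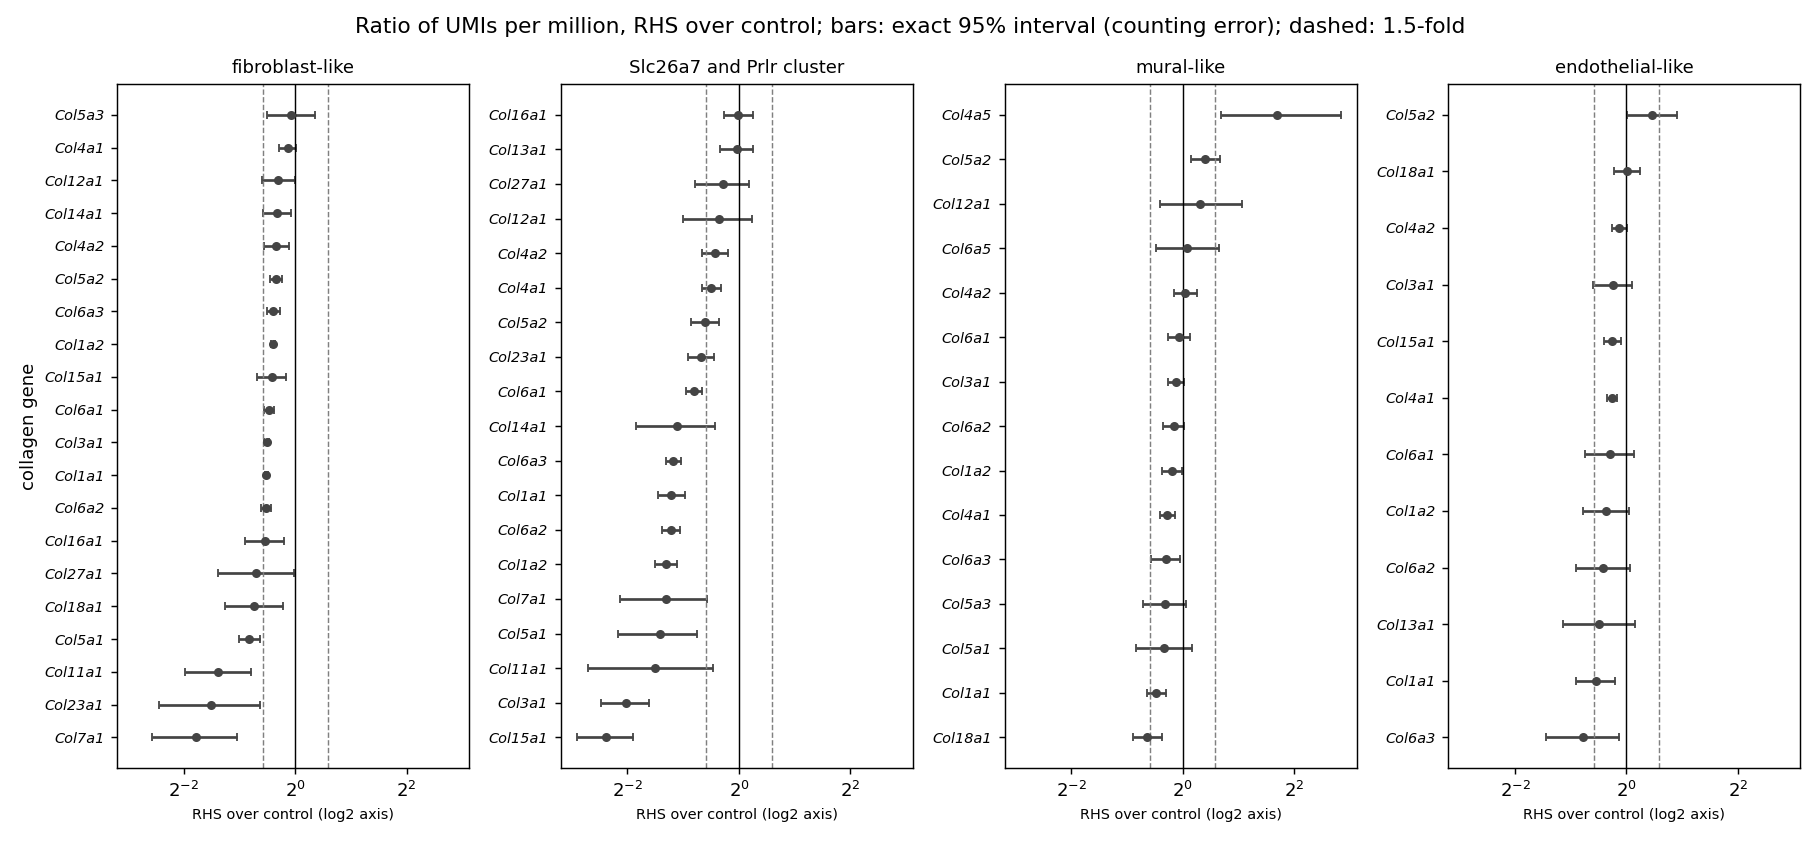
Ratio of RHS over control (log2 axis) of each measured collagen gene in 4 skin classes, as points with exact 95% intervals for counting error; the solid line is equality and the dashed lines are 1.5-fold. All 20 points of fibroblast-like cells and all 19 of the Slc26a7 and Prlr cluster lie at or below equality, while Col4a5 stands at 3.22 in mural-like cells.

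The Slc26a7 and Prlr cluster had another collagen profile. Type VI chains were 43.1% of its collagen UMIs in RHS and 47.4% in control, against 24.0% and 23.4% in mural-like cells. Col6a3 was at 370 CPM in RHS and 840 CPM in control, Col6a1 at 382 and 668 CPM, and Col6a2 at 268 and 626 CPM. Col1a2 exceeded Col1a1 there, at 171 and 422 CPM for Col1a2 against 119 and 275 CPM for Col1a1. The 10 highest cells held 29.4% of the Col1a1 UMIs in RHS and 42.8% in control, where 1 cell held 144 of 836. For Col1a2 they held 19.2% and 16.7%. Col4a1 was at 253 and 357 CPM, Col4a2 at 138 and 184 CPM and Col23a1 at 135 and 217 CPM. Col13a1, a transmembrane collagen known from the neuromuscular junction, had 75.2% of its skin UMIs in this cluster, at 97.3 CPM in RHS and 99.7 CPM in control. Its level was not particular to this cluster. At the finer resolution the Hhip and Sostdc1 cluster had Col13a1 at 157 CPM (20 UMIs) in RHS and 97.8 CPM (81 UMIs) in control. Fibroblast markers were low but present, at a sum of 700 CPM in RHS and 577 CPM in control, with 1 of 9 at 0 in each. Leukocyte markers summed to 484 CPM in RHS and 273 CPM in control, with 0 of 9 at 0; their part in the differences below was not tested.

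Collagens together were lower in RHS in this cluster (ratio 0.525, 0.506 to 0.545). Of 19 measured members, 19 were below equality and 13 were at least 1.5-fold lower, against 12% of 7463 genes; 0 were as much higher, against 6.03%. The median log2 ratio was -1.11 over the members and -0.06 over all measured genes. Col15a1, a basement membrane collagen of the multiplexin kind, was the lowest at 25.5 and 134 CPM (0.191, 0.133 to 0.267), followed by Col3a1 at 34.9 and 143 CPM (0.244, 0.180 to 0.326), Col11a1 (0.353), Col5a1 (0.372), Col7a1 (0.403) and Col1a2 (0.405). Col16a1 (0.992, 0.825 to 1.19) and Col13a1 (0.976, 0.795 to 1.19) had intervals that included 1, and Col27a1, Col12a1, Col4a2 and Col4a1 were at 0.816, 0.777, 0.746 and 0.708. Col6a3 was seen in 26.4% of RHS and 50.2% of control cells, and in 14.2% and 25.4% after thinning to 500 UMIs. The border with the Hhip and Sostdc1 cluster bears on these ratios: at the finer resolution that cluster held 59 RHS and 342 control cells, and the 2 largest parts of what remained had collagens at 0.196% in RHS against 0.259% in control and 0.255% against 0.376%. Both parts kept the direction, and 7 members were then at least 1.5-fold lower.

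The Hhip and Sostdc1 cluster was small, so it is described without a comparison. Col1a2 led it at 4155 CPM in RHS (18 cells) and 2420 CPM in control (62 cells), and Col15a1 was next at 3428 and 1790 CPM. Col3a1 was at 1939 and 789 CPM and Col6a3 at 658 and 1128 CPM. Multiplexins were 23.2% of its collagen UMIs in RHS and 16.1% in control. Its Col1a1 to Col1a2 ratio in control was 0.322 (0.265 to 0.388), against 1.95 in control fibroblast-like cells.

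Vascular cells shared the basement membrane genes and differed in the rest. Mural-like cells had the highest Col4a1 of all skin classes, at 1697 CPM in RHS and 2061 CPM in control, beside Col3a1 at 1488 and 1619 CPM, Col1a2 at 974 and 1111 CPM and Col1a1 at 917 and 1271 CPM. Col6a1, Col6a2 and Col4a2 lay between 880 and 895 CPM in RHS and between 852 and 997 CPM in control. Col6a5, a rarer type VI chain, had 74.5% of its skin UMIs here, at 120 and 113 CPM, though on 117 UMIs. In endothelial-like cells type IV genes were 61.0% of collagen UMIs in RHS and 60.3% in control, with Col4a1 at 1085 and 1296 CPM and Col4a2 at 534 and 585 CPM. Multiplexins were 22.2% and 21.5%, with Col15a1 at 415 and 495 CPM and Col18a1, whose product is the source of endostatin, at 175 and 174 CPM. Col1a1, Col3a1, Col5a2 and Col1a2 lay between 54.1 and 73.8 CPM in RHS and between 44.8 and 104 CPM in control. For each of these the 10 highest endothelial-like cells held between 40% and 66.7% of its UMIs. Mural-like cells had 3 UMIs of Col15a1 in RHS and 0 in control, beside Col18a1 at 414 and 642 CPM.

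Between libraries the vascular classes differed less. In mural-like cells collagens were at a ratio of 0.887 (0.853 to 0.922), with 1 of 15 measured members at least 1.5-fold higher, against 6.8% of 3148 genes, and 1 as much lower, against 6.39%. These shares are close to the background. The higher member was Col4a5 (47 UMIs in RHS and 10 in control, 3.22, 1.60 to 7.14), a chain best known from the kidney glomerulus, and the lower one was Col18a1 (0.645, 0.539 to 0.771). Col5a2 was at 603 and 457 CPM (1.32, 1.10 to 1.58), Col12a1 at 1.24, Col6a5 at 1.06, Col4a2 at 1.03 and Col6a1 at 0.954, while Col1a1 was at 0.721, Col5a1 at 0.789, Col5a3 at 0.799, Col6a3 at 0.807 and Col4a1 at 0.823. The 10 highest cells held 27.6% of the mural-like collagen UMIs in RHS and 44.5% in control. In endothelial-like cells the ratio was 0.852 (0.818 to 0.887), and 1 of 12 members was at least 1.5-fold lower, against 6.03% of 6085 genes, and 0 higher, against 4.54%. That member was Col6a3 (19.7 and 33.9 CPM, 0.581, 0.366 to 0.909), followed by Col1a1 at 0.683, Col13a1 at 0.715, Col6a2 at 0.750, Col1a2 at 0.780 and Col6a1 at 0.811. The UMIs of these genes lay in few cells. For Col6a3 the 10 highest cells held 62.5% in RHS and 64.4% in control. The range over these genes was 45.8% to 66.7%, against 16.7% in RHS and 11.6% in control for Col4a1. Col4a1 was at 0.837 (0.786 to 0.891) and Col15a1 at 0.839 (0.757 to 0.928), Col3a1 at 0.841, Col4a2 at 0.913, Col18a1 at 1.01 (0.855 to 1.19) and Col5a2 at 1.37 (1.01 to 1.87). The median log2 ratios over members were -0.16 in mural-like and -0.28 in endothelial-like cells, with 0.02 and 0.00 over all measured genes.

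Col4a1 and Col4a2 encode the chains that join 2 to 1 in the common type IV collagen, and the genes lie head to head. Their RefSeq transcripts start within the window chr8:11312801-11312830 of GRCm38.p6, shown on the plus strand with the 22 bases that both transcripts cover in capitals; Col4a2 runs to the right from 11312805 and Col4a1 to the left from 11312826.
Col4a1 and Col4a2 starts: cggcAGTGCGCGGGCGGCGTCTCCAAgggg
The 2 genes kept near the same proportion in most classes. Col4a1 UMIs were 2.31 times those of Col4a2 in RHS fibroblast-like cells and 1.99 times in control ones. The ratio was 1.93 and 2.42 in mural-like cells and 2.03 (1.87 to 2.21) and 2.22 (2.06 to 2.39) in endothelial-like cells. Keratinocyte-like cells stood higher, at 3.23 (2.46 to 4.27) and 3.75 (3.37 to 4.18). In ganglia nuclei the ratio lay between 1.5 and 1.86 in all described classes except mural-like nuclei, at 1.00 (0.653 to 1.53). Across 27 class and library pairs the correlation of their log2(CPM + 10) levels was 0.98 (Pearson r, pairs sharing libraries). The chains of type I collagen varied more. Within skin, the Col1a1 to Col1a2 ratio was 1.80 (1.77 to 1.84) in RHS and 1.95 (1.91 to 1.99) in control fibroblast-like cells. It was 0.322 (0.265 to 0.388) in the control Hhip and Sostdc1 cluster. In ganglia fibroblast-like nuclei, measured on another platform, it was 0.439 (0.403 to 0.478).

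**Figure D3:**
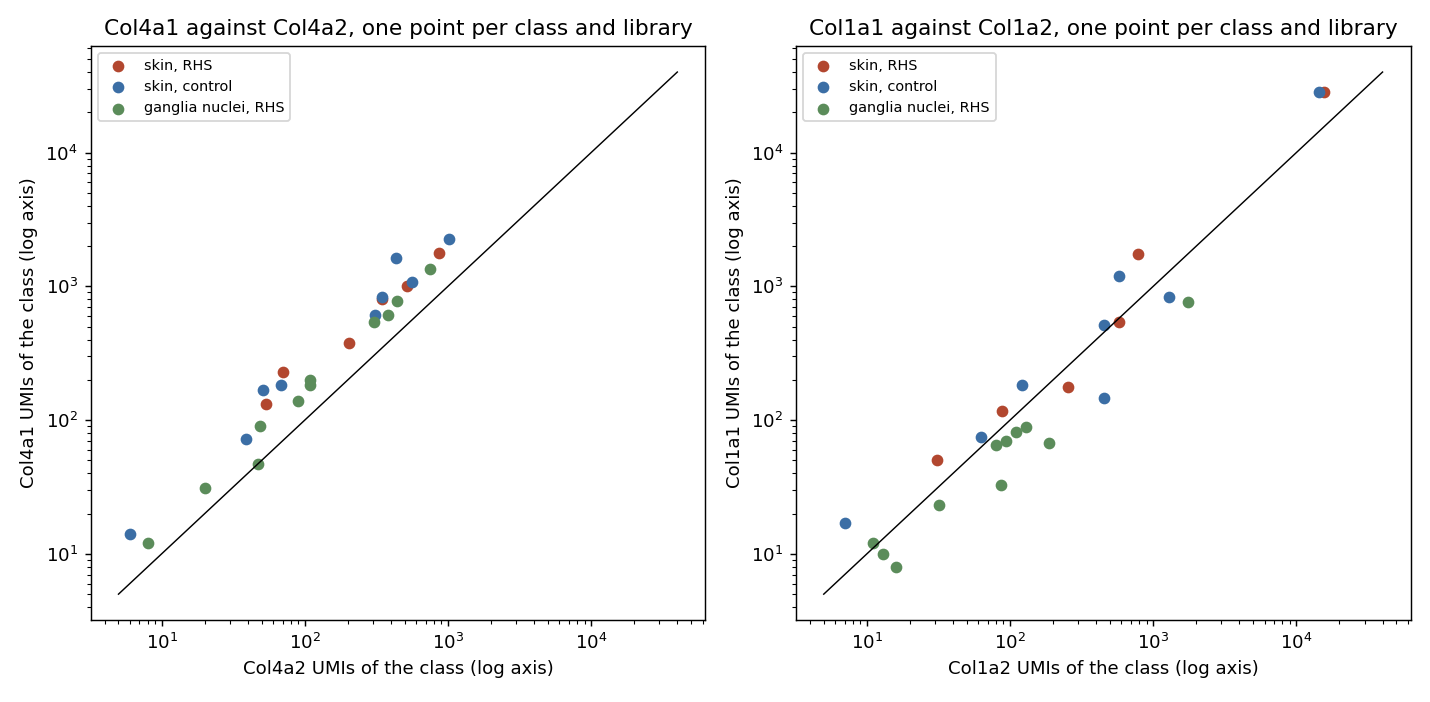
UMIs of Col4a1 against Col4a2 (left) and of Col1a1 against Col1a2 (right), 1 point per class and library on log axes; the line marks equal counts. Col4a1 lies above the line in every class except ganglia mural-like nuclei, which lie on it with 47 UMIs each, whereas Col1a1 lies on both sides.

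Keratinocyte-like cells were set apart by Col17a1, the transmembrane collagen of hemidesmosomes. They held 94.5% of its skin UMIs, at 121 CPM in RHS and 108 CPM in control (1.12, 1.01 to 1.24), in 38.9% and 38.1% of cells. Leukocyte-like cells had a UMI in 0.333% and 0.362%. Thinned to 500 UMIs per cell, the shares were 7.89% and 7.96% in keratinocyte-like cells and 0.0707% and 0.0362% in leukocyte-like cells. Col17a1 was highest in the cluster led by Krt6a and Krtdap, at 232 and 223 CPM, then in the cluster led by Krt16 and Dlx3, at 116 and 68.8 CPM, and lowest in the cluster led by Elovl6, at 18.7 and 14.1 CPM. Col4a1 (47.1 and 155 CPM), Col18a1 (21.8 and 68.9 CPM), Col14a1 (12.8 and 76.1 CPM) and Col4a2 (14.6 and 41.3 CPM) followed in the class.

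Over the whole class collagens were lower in RHS keratinocyte-like cells (ratio 0.511, 0.482 to 0.542), with 8 of 16 measured members at least 1.5-fold lower, against 16.3% of 9981 genes, and 0 as much higher, against 7.82%. The members had a median log2 ratio of -0.62 and all measured genes one of -0.08. Col27a1 (0.116, 0.0640 to 0.195), Col14a1 (0.168, 0.127 to 0.217), Col5a1 (0.238), Col7a1 (0.286), Col4a1 (0.305) and Col18a1 (0.316) were the lowest, and Col1a1 (1.44), Col17a1 (1.12), Col4a5 and Col23a1 (1.08 each), Col1a2 (1.07) and Col16a1 (0.708) the highest. Of these Col1a1 (10.3 and 7.13 CPM) and Col1a2 (6.38 and 5.99 CPM) lay below their levels in leukocyte-like cells, 42.1 and 33.4 CPM for Col1a1 and 18.7 and 16.1 CPM for Col1a2. Of the 3 clusters within the class, 1 showed a lower level in RHS. The Krt16 and Dlx3 cluster, which had most collagen, held 77 RHS and 558 control cells, while the Krt6a and Krtdap cluster held 386 and 606 and the Elovl6 cluster 234 and 243. Collagens were 0.0680% of UMIs in RHS and 0.0946% in control in the Krt16 and Dlx3 cluster (ratio 0.719), 0.0451% and 0.0441% in the Krt6a and Krtdap cluster (1.02) and 0.00701% and 0.00698% in the Elovl6 cluster (1.00). The last value is below that of leukocyte-like cells. Within the Krt16 and Dlx3 cluster Col4a1 was at 95.2 and 305 CPM and Col14a1 at 130 and 176 CPM.

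Col12a1 led in melanocyte-like cells. This gene, of a fibril-associated collagen, had 102 UMIs in 55 RHS cells and 407 UMIs in 163 control cells, was seen in 74.5% and 72.4% of cells, and stood at 751 and 509 CPM (1.47, 1.18 to 1.84). Fibril-associated genes were 82.9% and 79.8% of their collagen UMIs, and Col16a1, of the same kind, was at 95.7 and 70.1 CPM. The ratio for collagens together was 1.37 (1.13 to 1.65), and of 2 measured members 0 passed 1.5-fold, against 10.2% of 3062 genes higher and 24.1% lower. Markers of other cells were also higher in RHS melanocyte-like cells: keratinocyte markers summed to 928 CPM in RHS (3 of 10 at 0) and 225 CPM in control (0 at 0), and leukocyte markers to 744 and 213 CPM (0 of 9 at 0). Their part in the result was not tested; Col12a1 was at 7.61 and 12.1 CPM in keratinocyte-like cells. Col12a1 in fibroblast-like cells was at 217 and 267 CPM. In Schwann-like cells Col1a1 was at 921 and 492 CPM, Col1a2 at 737 and 803 CPM and Col4a1 at 568 and 377 CPM, but 10 cells held 75.1% and 60.7% of the collagen UMIs. Adipocyte-like cells were led by Col4a1, at 923 CPM in RHS and 614 CPM in control.

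**Figure D4:**
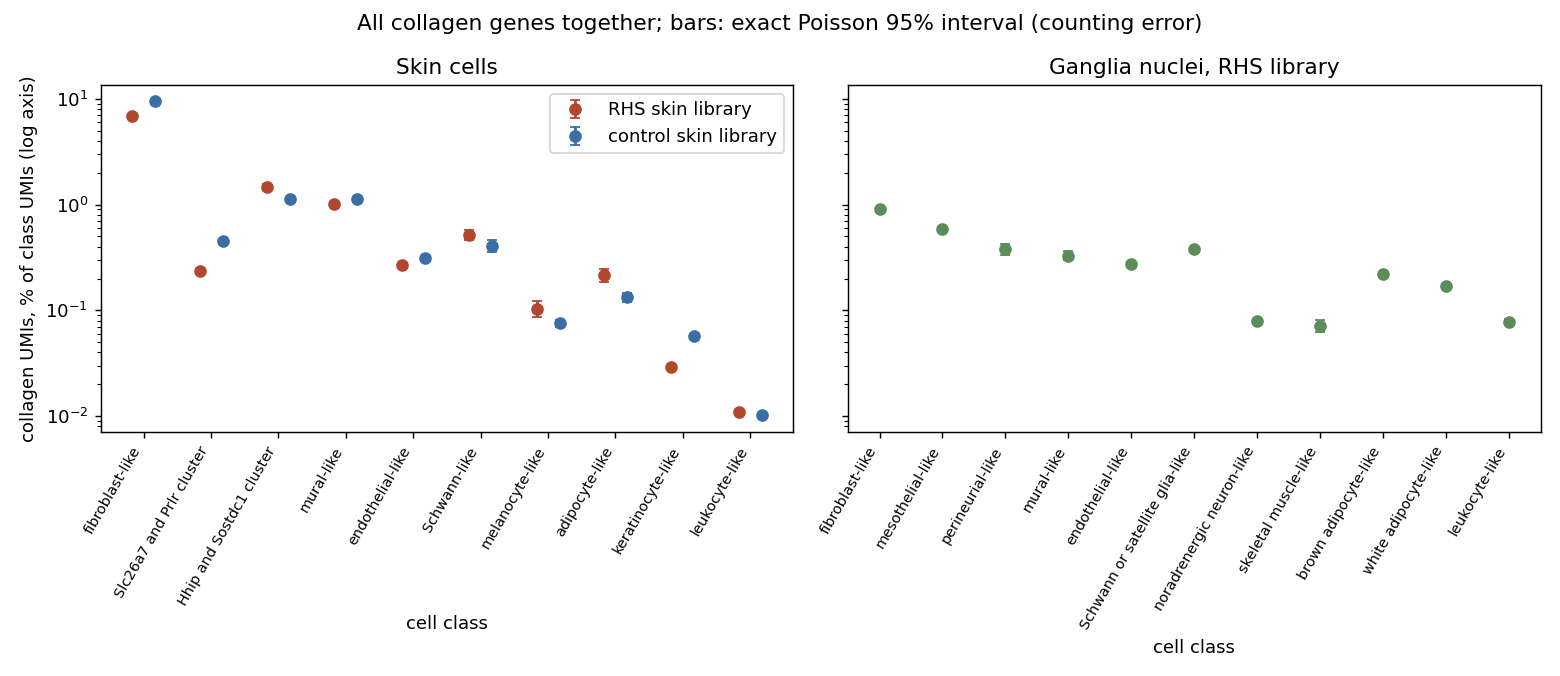
Collagen UMIs as a percentage of all UMIs of each class (log axis), for RHS and control skin cells (left) and ganglia nuclei (right), with exact Poisson 95% intervals. Skin values span from 9.52% in control fibroblast-like cells to 0.0104% in control leukocyte-like cells, and ganglia values span from 0.911% in fibroblast-like to 0.0714% in skeletal muscle-like nuclei.

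In the ganglia, fibroblast-like nuclei were again the highest, with 0.911% of UMIs from collagens (695 nuclei, 0.894 to 0.927%). Mesothelial-like nuclei were at 0.589% (254), glia-like nuclei of the Schwann or satellite kind at 0.382% (246), perineurial-like nuclei at 0.377% (57), mural-like at 0.329% (81), endothelial-like at 0.275% (655), brown adipocyte-like at 0.221% (912) and white adipocyte-like at 0.171% (405). Leukocyte-like nuclei were at 0.0774% (749, 0.0726 to 0.0824%), which is taken as the background level. Noradrenergic neuron-like nuclei, at 0.0786% (235, 0.0749 to 0.0826%), and skeletal muscle-like nuclei, at 0.0714% (140, 0.0622 to 0.0816%), did not stand above it as whole classes. The neuron-like value joins 2 clusters on opposite sides of that level, at 0.203% (122 nuclei, 0.191 to 0.216%) and 0.0408% (113 nuclei, 0.0377 to 0.0441%). Skin values are from whole cells on a different platform, so they are set beside these without a test; nuclei also hold unspliced RNA.

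Connective tissue nuclei of the ganglia divided the family between them. In fibroblast-like nuclei Col3a1 led at 2460 CPM, followed by Col5a2 at 1419, Col1a2 at 1349, Col14a1 at 631, Col4a1 at 600, Col1a1 at 592, Col8a1 at 344 and Col4a2 at 340 CPM. Fibrillar genes were 69.2% of their collagen UMIs, and Col14a1, which coats fibrils, had 72.9% of its ganglia UMIs here. The Col8a1 level rested on few nuclei: 10 held 72.1% of its 445 UMIs and 1 held 165. Mesothelial-like nuclei, from the lining of body cavities, shared Col3a1 (1780 CPM) and Col5a2 (709 CPM) and stood out for the type IV chains Col4a6 (606 CPM, in 50.4% of nuclei) and Col4a5 (436 CPM) and the type VI chains Col6a5 (548 CPM, in 31.5%) and Col6a6 (241 CPM). They held 75.8% of the ganglia UMIs of Col4a6 and 80.8% of those of Col6a5. Col1a2 and Col14a1 were at 347 and 285 CPM there.

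Perineurial-like nuclei, from the sleeve of cells that encloses nerve bundles, carried a different type IV set. Col4a4 was at 434 CPM (30 UMIs, in 36.8% of nuclei) and Col4a3 at 275 CPM (19 UMIs), while Col4a5 and Col4a6 had 0 UMIs. Col4a1 was at 448, Col3a1 at 405, Col8a1 at 318 and Col25a1 at 303 CPM, but all 21 UMIs of Col25a1 came from 1 nucleus. Col4a4 and Col4a3 were also seen in the ganglia endothelial-like cluster led by Eln and Cytl1, at 91.9 CPM (60 UMIs) and 50.55 CPM (33 UMIs). In skin Col4a3 had 12 UMIs in all, and 47 of the 65 UMIs of Col4a4 were in fibroblast-like cells. The perineurial-like class is small, at 69210 UMIs, and its fibroblast markers summed to 2153 CPM, against 5446 CPM in fibroblast-like nuclei, with 2 of 10 at 0.

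Glia-like nuclei were marked by Col28a1, a collagen with von Willebrand A domains known from the basement membrane around peripheral glia. It stood at 535 CPM (468 to 610), in 47.2% of nuclei, with 226 of its 318 ganglia UMIs (71.1%) in this class; the levels in fibroblast-like and leukocyte-like nuclei were 19.3 and 11.96 CPM. Its UMIs were spread over nuclei, the 10 highest of which held 26.6%. Skin Schwann-like cells (44 in RHS and 38 in control) had 6 UMIs of Col28a1 in RHS and 5 in control, at 92.1 and 82.0 CPM. Col5a2 (692 CPM) and Col4a1 (431 CPM) were the other high members in glia-like nuclei, and Col5a3, Col11a1, Col27a1 and Col16a1 lay between 135 and 220 CPM. Col11a1 had 81 of its 142 ganglia UMIs here, at 192 CPM. Fibroblast markers summed to 3112 CPM in these nuclei; their part in the fibrillar levels was not tested.

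Neuron-like and muscle-like nuclei stood near the leukocyte-like level as whole classes. Of the neuron-like clusters, the higher one in collagen was led by haemoglobin genes and the lower one by Kcnip4. Col5a3, a fibrillar type V chain, was at 147 CPM over the class in 40.9% of nuclei, against 19.1 CPM in leukocyte-like nuclei. It was at 168 CPM in the Kcnip4 cluster and at 78.5 CPM in the haemoglobin cluster. In skeletal muscle-like nuclei Col19a1, a fibril-associated collagen, was at 113 CPM on 34 UMIs in 6.43% of nuclei, with 14 UMIs in 1 nucleus, and Col3a1 was at 113 CPM, below the 173 CPM of leukocyte-like nuclei.

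Over all ganglia endothelial-like nuclei the highest gene was Col8a1, a chain of the short-chain type VIII network of vessel walls, at 837 CPM in 30.1% of nuclei. It was at 1464 CPM in the cluster led by Eln and Cytl1 (274 nuclei) and at 168 CPM in the cluster led by Adgrl4 and Flt1 (315 nuclei), where Col4a1 was higher at 472 CPM. Skin endothelial-like cells (463 in RHS and 436 in control) held 36 UMIs of Col8a1, at 10.7 CPM. Col4a1, Col5a2 and Col18a1 followed in ganglia endothelial-like nuclei at 439, 353 and 202 CPM. A cluster of 66 endothelial-like nuclei led by Reln and Mmrn1 had Col4a1 at 465 CPM, Col23a1 at 284 CPM and Col8a1 at 17.2 CPM. Mural-like nuclei had Col4a1 and Col4a2 at 370 CPM each, Col4a5 at 276 CPM (35 UMIs in 11.1% of nuclei), Col18a1 at 229 CPM and Col5a3 at 221 CPM.

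Fat cell nuclei were rich in basement membrane collagen, which was 56.3% of collagen UMIs in brown and 57.6% in white adipocyte-like nuclei. Col4a1 was at 766 CPM in brown adipocyte-like nuclei, the highest of all ganglia classes. It was at 991 CPM in the cluster with Ucp1 among its leading genes and at 463 CPM in the one led by Clps. Col4a2 was at 421 CPM and Col12a1 at 241 CPM, divided between the clusters as 351 and 92.8 CPM. In white adipocyte-like nuclei Col4a1 was at 588 CPM and Col12a1 at 106 CPM.

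**Figure D5:**
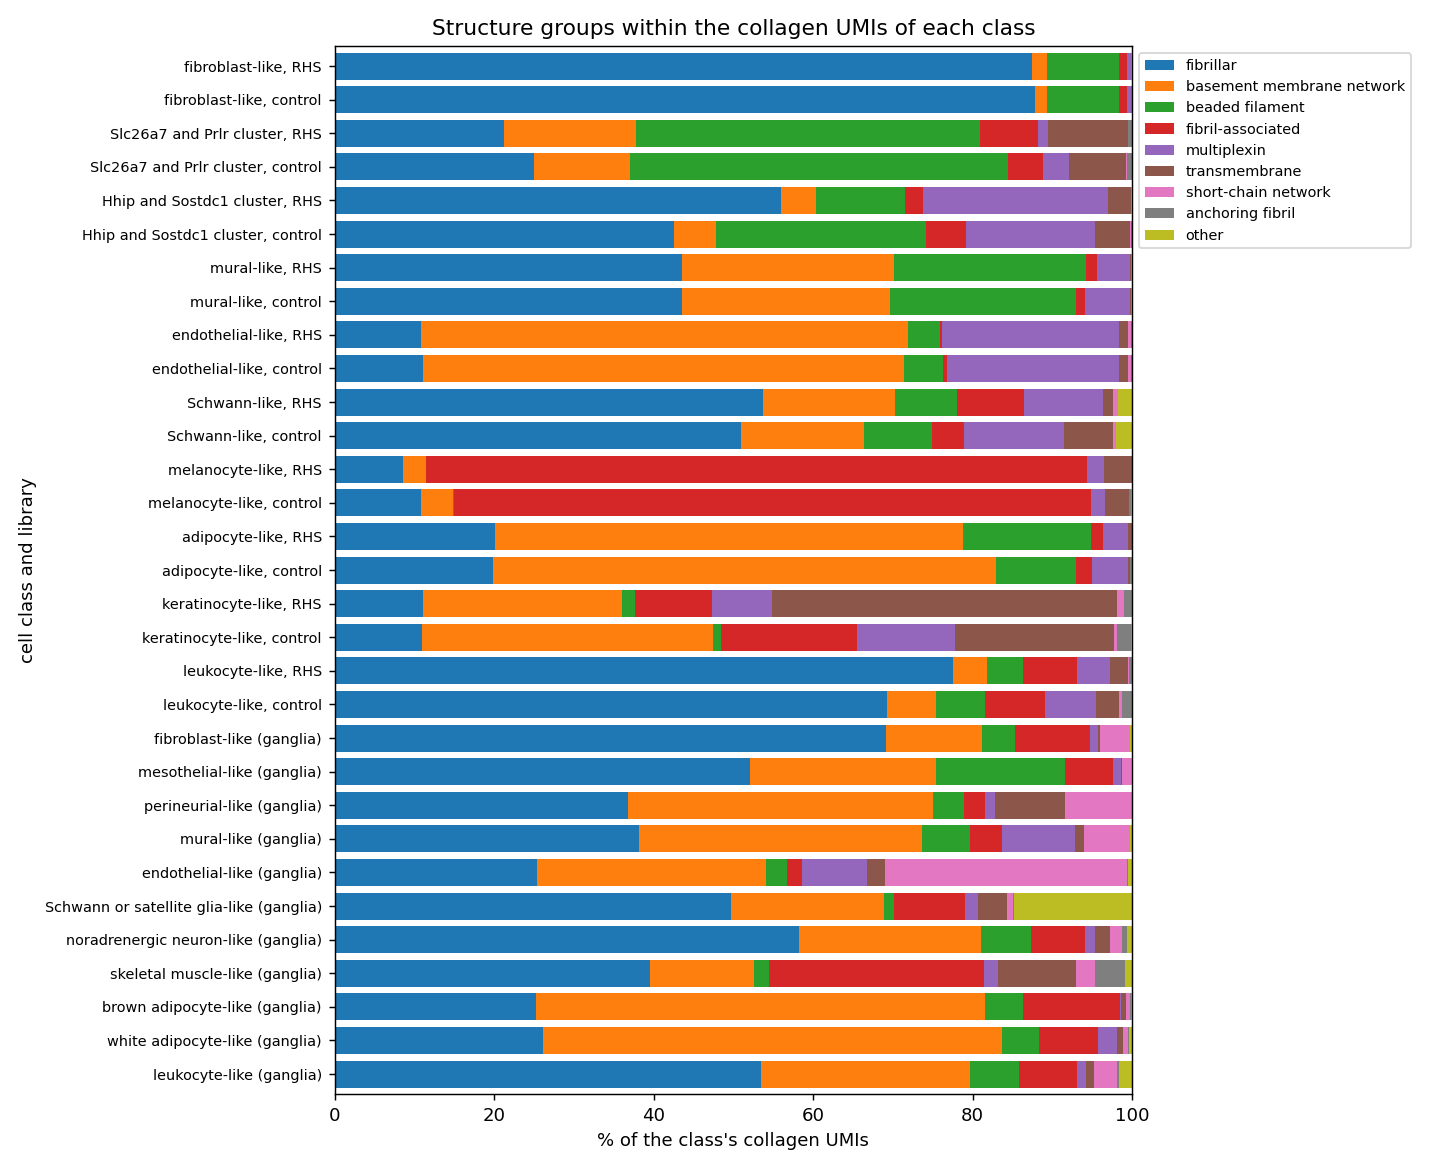
Share of each structure group in the collagen UMIs of every class and library (bars sum to 100%), skin above and ganglia below, RHS above control. Fibrillar genes (blue) fill 87.5% and 87.8% in skin fibroblast-like cells, fibril-associated genes (red) 82.9% and 79.8% in melanocyte-like cells, and the short-chain group (pink) 30.4% in ganglia endothelial-like nuclei.

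The members with fewer than 20 UMIs in every class numbered 13 in skin and 14 in the ganglia. They included cartilage collagens (Col2a1, with 11 UMIs in skin and 1 in the ganglia, and Col9a1, Col9a2 and Col10a1) and Col24a1, Col26a1 and Col22a1. Members could be low in 1 tissue and not in the other: Col17a1 had 1821 UMIs in skin and 4 in the ganglia. In the opposite direction Col28a1 had 318 UMIs in the ganglia and 24 in skin, and Col19a1 had 81 and 11. These totals are not scaled for depth. Before filters skin held 52762575 (RHS) and 55200785 (control) UMIs, against 11101393 in the ganglia. The totals of Col13a1 (596 in skin and 44 in the ganglia) and Col7a1 (377 and 33) thus do not by themselves show a lower level in the ganglia.

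The genes of collagen assembly were examined as 6 lists of 47 genes (hydroxylation, folding and export, procollagen processing, cross-linking, fibril-binding proteins and receptors). In RHS against control fibroblast-like cells, 31 were measured, of which 10 were at least 1.5-fold lower, against 8.3% of all measured genes, and 1 higher, against 9.02%, and their median log2 ratio was -0.34. Serpinh1, the collagen chaperone HSP47, was at 1329 and 2410 CPM (0.551, 0.511 to 0.595). Of the hydroxylation list 5 of 11 measured genes were at least 1.5-fold lower, and of the folding and export list 2 of 5. The lowest of all was Fmod, encoding the fibril-binding fibromodulin, at 582 and 1381 CPM (0.422, 0.378 to 0.470), then Mia2, of collagen export, at 0.505. Lox, which cross-links collagen, was at 363 and 227 CPM (1.60, 1.31 to 1.96) and Pcolce2, an enhancer of procollagen cleavage, at 1.34. These are values over the whole class; at the finer clustering the Dcn and Mgp cluster held 180 RHS and 78 control cells and the Coch and Fmod cluster 53 and 67, so the makeup differed between the libraries. In the Slc26a7 and Prlr cluster 9 of 31 were lower, against 12% of all measured genes, and 1 higher, against 6.03%, with Fkbp10 at 0.442, Loxl2 at 0.447, Plod1 at 1.49 and Dcn at 1.92.

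In mural-like cells 2 of 21 assembly genes were lower, against 6.39% of all measured genes, namely Bgn (0.608) and Serpinh1 (0.628). There 2 were higher, against 6.8%, namely Colgalt1 (1.80) and Dcn (113 and 27.1 CPM, 4.17). Dcn is also a fibroblast marker. In leukocyte-like cells, the background, the 4 measured fibril-binding genes had a median log2 ratio of 0.345. The part of background RNA in the Dcn ratios of mural-like cells and the Slc26a7 and Prlr cluster was not tested. In endothelial-like cells 5 of 23 were lower, against 6.03%, and 1 higher, against 4.54%, with Pcolce at 0.476, Loxl2 at 0.485, Ppib at 1.23 and P3h2 at 2.10. In melanocyte-like cells 5 of 15 were lower, against 24.1%, and 1 higher, against 10.2%, with Sparc at 0.141, Plod2 at 0.315, P4ha1 at 1.27 and Colgalt1 at 1.58. In keratinocyte-like cells 7 of 21 were lower, against 16.3%, and 0 higher, against 7.82%, with Bgn at 0.106, Itga2 at 0.262, P4hb at 1.16 and P3h2 at 1.34. In the ganglia Serpinh1 was at 100.3 CPM in fibroblast-like, 116 CPM in mesothelial-like and 119 CPM in endothelial-like nuclei. Dcn, encoding the fibril-binding decorin, was at 1280, 1139 and 1098 CPM in fibroblast-like, mesothelial-like and perineurial-like nuclei.

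Over the 27 class and library pairs, the 5 genes outside the family whose log2(CPM + 10) was most like that of Col1a1 were Olfml2b (Pearson r 0.93), Cd248 (0.91), Rcn3 (0.91), Ms4a4d (0.90) and Fkbp10 (0.89), and within the family Col1a2 (0.97). For Col4a1 they included Ehd2 (0.92), Plpp3 (0.90), Igfbp7 (0.87) and Pxdn (0.85). The pairs share libraries, tissues and platforms, so these are descriptions.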

How the data were processed

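The files are matrices of UMI counts per gene and barcode as the authors deposited them, raw and whole per the file headers and the values. Per the file headers the ganglia counts came from Cell Ranger 7.1.0 with 10x 3′ chemistry; the skin cells were captured on BD Rhapsody per the labels' protocols, and the sources used here do not name the program behind their counts. The submitters' processing notes name build GRCm39, R 3.6.0, Seurat 5.1.0 and Cell Ranger with no role. The libraries held 13339 (skin RHS), 12979 (skin control) and 4706 (ganglia RHS) barcodes with 52762575, 55200785 and 11101393 UMIs, none under 500.

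Barcodes with at least 200 genes and at most 20% (skin) or 5% (ganglia) mitochondrial UMIs were kept. Scrublet in scanpy 1.11.5, at an expected share of 6%, then removed 115 (0.88%), 146 (1.15%) and 2 (0.0444%) as doublets, so in the ganglia it marked almost none and doublets remain in the classes. Cells were scaled to 10000 UMIs and log-transformed, and 2000 variable genes without collagens entered 30 principal components, 15 neighbours and Leiden clustering (leidenalg 0.10.2) at resolution 1.0. Of the most variable genes, 21 in skin and 17 in the ganglia would have been collagens. A cluster was named from marker lists when at least 3 markers had a UMI in 5% of its cells and lay 2-fold over the mean of other clusters, and the list with the highest mean log2 ratio gave the name. Clusters led by leukocyte lists, or unnamed with over 100 CPM of Ptprc (CD45), were pooled as leukocyte-like. Ganglia classes under 50 nuclei are not described, and skin classes were compared with at least 50 cells in each library.

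UMIs of each class were summed by library. Levels have exact Poisson, shares exact Clopper-Pearson and ratios of RHS over control exact conditional binomial 95% intervals (scipy 1.17.1); a gene was measured with at least 50 UMIs over both libraries and called past 1.5-fold. The interval routine was tested on simulated data. Named were up to 8 of the highest members with at least 20 UMIs per class, up to 6 of the highest and 6 of the lowest ratios, 2 and 2 of the assembly genes, and 5 genes per likeness query with at least 50 CPM in some class. Features outside this rule were chosen after their values were seen. The members and lists were chosen with earlier results of these data known. Promoters came from RefSeq (GRCm38.p6), where 35 of 44 members matched. Alternatives covered filters, doublets, resolution, collagens in the clustering, scaling and subtraction of the leukocyte-like level. A gene that these rules pick is not reported here.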

Additional observations from a re-analysis of the deposited data

Results flagged for a closer look

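The collagen ratio of RHS over control went opposite ways in the 2 parts of skin fibroblast-like cells. It was 0.608 in the part led by Dcn and Mgp (180 RHS and 78 control cells), where collagens were 4.96% of UMIs in RHS and 8.15% in control. It was 1.19 in the part led by Coch and Fmod (53 and 67 cells), where they were 11.2% and 9.39%. The difference between the parts was not tested, as each rests on 1 library per group. In the Dcn and Mgp part Col5a1 was at 0.431 and Col6a3 at 1.01, and in the Coch and Fmod part Col5a3 was at 2.36, Col4a2 at 0.565, Col11a1 at 0.541 and Col7a1 at 0.515.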

How the results depend on the processing

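Alternatives that pooled fibroblast-like cells with the unnamed clusters, or took sub-clusters or clusters alone, were chosen after seeing the data. The ratios of RHS over control in mural-like, endothelial-like and melanocyte-like cells kept their size within counting error under every alternative run. In fibroblast-like cells (0.719) the ratio was 1.23 with collagens kept in the clustering, 1.47 with doublets kept, 1.37 when pooled with the unnamed clusters and 1.19 in the Coch and Fmod part. It was 0.608 in the Dcn and Mgp part, 0.681 and 0.775 at resolutions 0.5 and 2.0, 0.731 at 500 genes per cell, 0.780 at 10% mitochondrial UMIs and 0.698 with collagens left out of the total. The first 4 turn the direction, and the first 2 changed which cells were in the class, as the report gives. The cause of the turn was not tested. In the Slc26a7 and Prlr cluster (0.525) it was 0.689, 0.760, 0.671, 0.663 and 0.607 with collagens kept, doublets kept, resolutions 0.5 and 2.0 and 500 genes, and 0.548 against the median gene. In keratinocyte-like cells (0.511) it was 0.580 at 10% mitochondrial UMIs, 0.480 after the leukocyte-like level was subtracted, and 1.02, 1.00 and 0.719 within the Krt6a and Krtdap, Elovl6, and Krt16 and Dlx3 clusters.

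Counts of members past 1.5-fold were within 1.5 times the reported count in 110 of the alternatives' values and moved in 20. In fibroblast-like cells 3 were lower and 1 higher in the Coch and Fmod part, and 1 and 4 were higher with collagens and with doublets kept. In the Slc26a7 and Prlr cluster 8, 7 and 6 were lower with collagens kept, at resolution 2.0 and with doublets kept. In mural-like cells 0 were higher at 10% mitochondrial UMIs and 2 with a minimum of 20 counts. In endothelial-like cells 2 were lower at 500 genes, at 10% mitochondrial UMIs and at 20 counts, and 3 after the leukocyte-like level was subtracted. In melanocyte-like cells 1 was higher at 10% mitochondrial UMIs and against the median gene. In keratinocyte-like cells 1 was higher against the median gene, 2 were lower and 2 higher in the Krt6a and Krtdap cluster, 4 higher in the Krt16 and Dlx3 cluster and 0 lower in the Elovl6 cluster.

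In the ganglia the collagen share of fibroblast-like nuclei was 0.871% with collagens kept, 0.930% at resolution 2.0 and 0.826% at 1% mitochondrial UMIs. It was 0.282% in mural-like nuclei at resolution 2.0, 0.408% in glia-like nuclei at 1% mitochondrial UMIs, and 0.213%, 0.235% and 0.212% in brown adipocyte-like nuclei with collagens kept, at resolution 2.0 and at 500 genes. The other 34 values stayed within their intervals. No paired analysis was possible because each group is 1 library, and for the same reason no library could be left out. Depth limits members under 20 UMIs in a class.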
